A study of Mus musculus with 3 samples.

Results

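The genes BC018242, Npas4, Kcnk9, Zfp28, Phf21b, Garnl3, Slc2a8 and Erich1 flanked or held the RUNX3-FLAG windows of ranks 1, 2, 3, 5, 7, 8 and 9, and were chosen by the rank of these windows, all among the first 10, and by a sequence in them like the binding site of the repressor REST. They were 8 of the 1966 genes that the authors listed as neighbours of the 1000 ranked windows. Together they had 10 windows, of which 7 were in the top 10 and 3 ranked lower. Garnl3 and Slc2a8 shared the window of rank 8, so their values are not independent. High rank and the presence of a REST-like site were used to choose the genes and are given as a description, with no test.

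The windows came from ChIP-seq of superficial zone (SFZ) chondrocytes, the cells of the surface layer of articular cartilage, isolated from 5-day-old wild-type C57BL/6 mice. All cells were lipofected with a vector for 3xFLAG-tagged Runx3, so the tagged protein was expressed from a plasmid in addition to the endogenous gene. Chromatin was pulled down with the FLAG antibody clone M2 (RUNX3-FLAG, 1 library) or with an antimouse-IgG antibody (IgG, 1 library), or was sequenced without pull-down (input, 1 library). Each group had a single library, so values had no replicate error. The depth of the libraries was unknown, and the identity of the cells could not be checked from peak positions. The main list is the one named for RUNX3-FLAG, and the list that also names IgG, whose control is not stated, is called the IgG-named list. Both were made from the same RUNX3-FLAG library and are not replicates of each other.

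REST is a zinc finger protein that binds the RE1 element and keeps neuronal genes silent in cells that are not neurons. It acts through co-repressors, which bring histone deacetylases and the histone demethylase LSD1 to the site. The RE1 element is long and consists of a left and a right half-site separated by a short spacer. Runx3 belongs to another family and binds a short, unrelated motif through its Runt domain. The 8 genes differ in what is known of them in neurons. Npas4 is a transcription factor that neurons switch on upon activity. Kcnk9 encodes the potassium leak channel TASK3 of neurons. BC018242, now called Plppr2, belongs to a family of brain-enriched lipid phosphatase-related membrane proteins. Phf21b is a paralogue of Phf21a, a subunit of the LSD1 co-repressor complex that REST recruits. Zfp28 encodes a zinc finger protein, Slc2a8 the glucose transporter GLUT8, and Garnl3 a protein with a domain of GTPase activators. For Erich1, which encodes a glutamate-rich protein, no neuronal role is given here, but its neighbour Dlgap2 encodes a scaffold protein of the postsynaptic density.

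Every one of the 7 top windows held a pair of REST-like sites, not a single one. A REST-like site was counted where the half-sites CAGCACC and GGACAGC, with 2 bases between them, matched on either strand with at most 3 mismatches over their 14 letters. The paired sites are shown because the 7 top windows had them in common, though pairs were not particular to these windows. Each is printed 5′ to 3′ on its own strand, with the half-sites in capitals, 2 bases before and 3 bases after. Left and right refer to the order on the plus strand of mm9.
BC018242, rank 1, left site: ttCAGGACCgtGGACAGCacc
BC018242, rank 1, right site: gtCAGCACCaaGGACAGAggc
Npas4, rank 2, left site: ttCAGCACCgcGGACAGCtcc
Npas4, rank 2, right site: ttCAGCACCgcGGGCAGCgcc
Kcnk9, rank 3, left site: ctCAGCACCgtGGACAGCgcc
Kcnk9, rank 3, right site: ttCAGGACCctGGACAGCtct
Zfp28, rank 5, left site: ttCAGTACCacGGATAGCgta
Zfp28, rank 5, right site: ttCAGCACCaaGGACAGCgtg
Phf21b, rank 7, left site: ttCAGGACCacGGACAGTtac
Phf21b, rank 7, right site: gcCAGCACCacGGACAGCacc
Garnl3 and Slc2a8, rank 8, left site: gcCAGCACCaaGGACAGCacc
Garnl3 and Slc2a8, rank 8, right site: gcAAGCACCaaGGACAGCacc
Erich1, rank 9, left site: gtCAGCACCaaGGACAGCacc
Erich1, rank 9, right site: gtCAGCACCaaGGACAGCacc

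Among these 14 sites, 7 had 0 mismatches, 5 had 1 and 2 had 2. The window at Erich1 had 2 exact sites, and their printed 21 bases were identical at all 21 positions. The sites at Garnl3 and Slc2a8 matched each other at 20 of 21 bases, those at Npas4 at 19, at Zfp28 at 17, at Kcnk9 at 16, at Phf21b at 15 and at BC018242 at 14. Over the 13 sites of these 10 windows that had 0 or 1 mismatches, the letters at 9 of the 21 positions did not vary, among them the A and G at positions 4 and 5 and the paired G at positions 12 and 13. All 9 lay in the half-sites, where the search itself asked for these letters, so their constancy was largely set by the search. Outside the half-sites, where the search asked for no letter, position 2 was T in 10 sites and C in 3, position 20 was C in 11 and position 21 was C in 10. These positions are counted from 1 at the first printed base.

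The whole windows show how the sites were arranged. The 4 printed here, with the half-sites in capitals and on the plus strand of mm9, are the head-to-head pair of rank 1, the pair in the first intron of Npas4, and the most similar pairs, at ranks 8 and 9.
BC018242, rank 1: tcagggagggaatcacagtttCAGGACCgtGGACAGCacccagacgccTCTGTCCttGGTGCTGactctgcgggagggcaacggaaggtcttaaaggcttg
Npas4, rank 2: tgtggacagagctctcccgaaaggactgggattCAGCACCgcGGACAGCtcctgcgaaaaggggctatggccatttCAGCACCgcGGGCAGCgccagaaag
Garnl3 and Slc2a8, rank 8: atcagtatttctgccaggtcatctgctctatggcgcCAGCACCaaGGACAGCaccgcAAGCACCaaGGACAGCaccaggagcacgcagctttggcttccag
Erich1, rank 9: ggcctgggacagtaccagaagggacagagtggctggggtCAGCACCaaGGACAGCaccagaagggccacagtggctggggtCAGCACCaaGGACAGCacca

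In 6 of the 7 windows both sites pointed the same way, on the plus strand at Npas4, Zfp28, Garnl3 and Erich1 and on the minus strand at Kcnk9 and Phf21b. At BC018242 they faced each other. The distance from the start of one site to the start of the next was 27 bp at BC018242, 43 bp at Npas4, 30 bp at Kcnk9, 53 bp at Zfp28, 51 bp at Phf21b, 21 bp at Garnl3 and 42 bp at Erich1. The spacing was thus not fixed, and the pairs spanned from 37 to 69 bp of the 101 bp of a window. In the 19 other windows of the main list with 2 sites the spacing ran from 24 to 56 bp with a median of 32 bp, against a median of 42 bp here, and 17 of the 19 pairs pointed the same way.

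**Figure D1:**
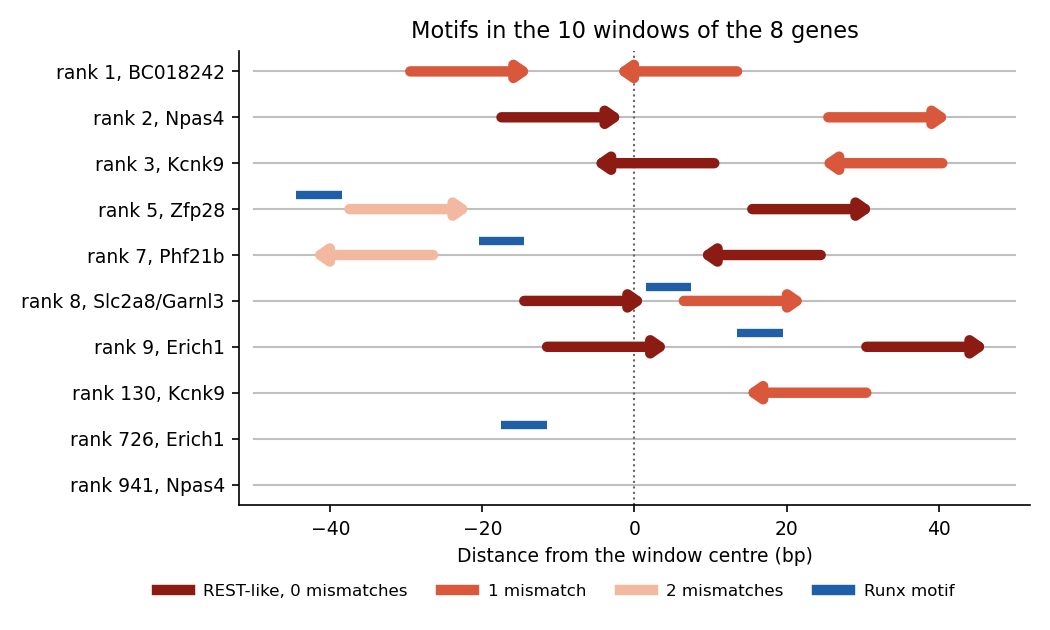
Positions of motifs in the 10 windows of the 8 genes, as distance from the window centre in bp on the x axis, with 1 row per window. Arrows are REST-like sites pointing along their strand and coloured by mismatches, and blue bars are Runx motifs. The 7 top windows each carry 2 arrows, the window of rank 130 carries 1, and those of ranks 726 and 941 carry none.

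Sites beyond the edges of the windows were sought up to 500 bp from each window, allowing 0 or 1 mismatches. At Kcnk9 a further site crossed the left edge of the rank 3 window, and its middle lay 45.5 bp from the centre. At Erich1 a further site lay 65.5 bp from the centre of the rank 9 window. At Zfp28 another site of 1 mismatch lay 89.5 bp from the centre, and at Phf21b one lay 60.5 bp from it. At BC018242, Npas4 and Garnl3 no site was added. Of the 7 loci, 2 thus had 3 sites of 0 or 1 mismatches close together, and the other 5 had 2. With up to 3 mismatches, as in the windows, and 50 bp added to each side, the counts were higher. There were then 4 sites at Npas4, Kcnk9 and Zfp28, 3 at Phf21b and Erich1, and 2 at BC018242 and Garnl3. The number of 2 sites thus depended at most loci on the width of the window.

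The distance of the sites from the middle of the window depended on which site was taken. For the site with the fewest mismatches, and among equals the one nearest to the centre, it was 5.5 bp from the centre at rank 1, 9.5 bp at rank 2, 2.5 bp at rank 3, 23.5 bp at rank 5, 16.5 bp at rank 7, 6.5 bp at rank 8 and 3.5 bp at rank 9. The windows of ranks 1 and 9 had a tie, and the other site was 21.5 bp from the centre at rank 1 and 38.5 bp at rank 9. With the site of the rank 130 window, at 22.5 bp, the median was 8.0 bp (n = 8 windows), and 19.0 bp with the farther of the tied sites. In 21 other windows with a site of 0 or 1 mismatches the median was 11.5 bp, with a range from 0.5 to 30.5 bp, and 14.5 bp with the farther of tied sites. In 26 other windows whose best site had 2 or 3 mismatches it was 16 bp, with a range from 0.5 to 40.5 bp. No test was made, as the ranges overlapped and the sites chose the windows.

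BC018242 had 1 window, of rank 1 in both lists, at chr9:21754925-21755025. It lay outside genes, 1.62 kb past the end of BC018242 and 12.3 kb from its TSS. The gene on the other side, Epor, which encodes the erythropoietin receptor, is on the opposite strand and also ended toward the window, 8.37 kb away, with its TSS at 13045 bp. The window lay between the 3′ ends of both genes. By GENCODE, which also uses mm9, a further gene, 2310047B19Rik, had its TSS 5.22 kb from the window.

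Npas4 had 2 windows. The first, rank 2 in both lists, was at chr19:4989129-4989229, in intron 1, 793 bp downstream of the TSS. Of the 7 top windows it was the closest to the TSS of one of the 8 genes. Its flanking genes were Mrpl11, a gene of the mitochondrial ribosome, with the TSS at 26.9 kb, and Slc29a2, a nucleoside transporter gene, with the TSS at 36.9 kb. The second window, at chr19:5002062-5002162, lay 12.1 kb upstream of Npas4 and 23994 bp upstream of Slc29a2. It ranked 941 in the main list and 969 in the IgG-named list. Its best match to the REST-like site had 6 mismatches, so it held none, and it also lacked the Runx motif.

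Kcnk9 had 2 windows, both upstream of the gene, and it was deposited as the nearest gene of neither. The first, rank 3 in both lists, was at chr15:72399093-72399193, outside genes and 22.4 kb upstream of the Kcnk9 TSS. The gene deposited as nearest was 1810044A24Rik, now called Trappc9, a gene of a vesicle transport complex, whose 3′ end was 20.9 kb away and whose TSS was 487 kb away. The second window, at chr15:72520348-72520448, was 121 kb from the first and 144 kb upstream of Kcnk9, in intron 19 of 1810044A24Rik. It ranked 130 in the main list and 134 in the IgG-named list. It held 1 REST-like site with 1 mismatch and no Runx motif. On its far side was Chrac1, a chromatin remodelling gene, at 400 kb.

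Zfp28 had 1 window, rank 5 in both lists, at chr7:6362920-6363020. It lay outside the deposited genes, 26.9 kb from the TSS of Zfp28 and 13.6 kb past its end. The olfactory receptor gene Olfr1344 began 29.6 kb to the other side. GENCODE placed an exon and the TSS of another gene, Gm16532, at the window, 17 bp from its centre. The distance to a TSS for this window therefore depended on the annotation used.

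Phf21b had 1 window, rank 7 in both lists, at chr15:84659969-84660069 in intron 2, 26.5 kb from its TSS. The flanking genes were 3110043J09Rik, now called Arhgap8, at 109 kb, and the nuclear pore gene Nup50 at 93.8 kb. Garnl3 and Slc2a8 shared 1 window, rank 8 in both lists, at chr2:32873700-32873800. It lay in intron 15 of Garnl3, 69.0 kb from the deposited TSS of that gene and 36.2 kb upstream of Slc2a8, which had the nearest deposited TSS. A shorter Garnl3 transcript in GENCODE began 8.96 kb from the window. Ralgps1, which encodes an exchange factor for Ral GTPases, was 353 kb away.

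Erich1 had 2 windows. The first, rank 9 in both lists, was at chr8:14072690-14072790 in intron 2, 17.6 kb from the TSS. Dlgap2 began 23.1 kb away on the opposite strand, and 2610019F03Rik, now called Tdrp, was 98.0 kb away. In the IgG-named list the window was shifted by 1 bp. The second window, at chr8:14090395-14090495, lay 118 bp upstream of the Erich1 TSS and 5.43 kb upstream of that of Dlgap2, between these divergent genes. It ranked 726 in the main list and 729 in the IgG-named list. It held the Runx motif and no REST-like site, with 6 mismatches at best. GENCODE placed an exon of another gene, Gm10699, in this window, with its TSS 16 bp from the centre.

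**Figure D2:**
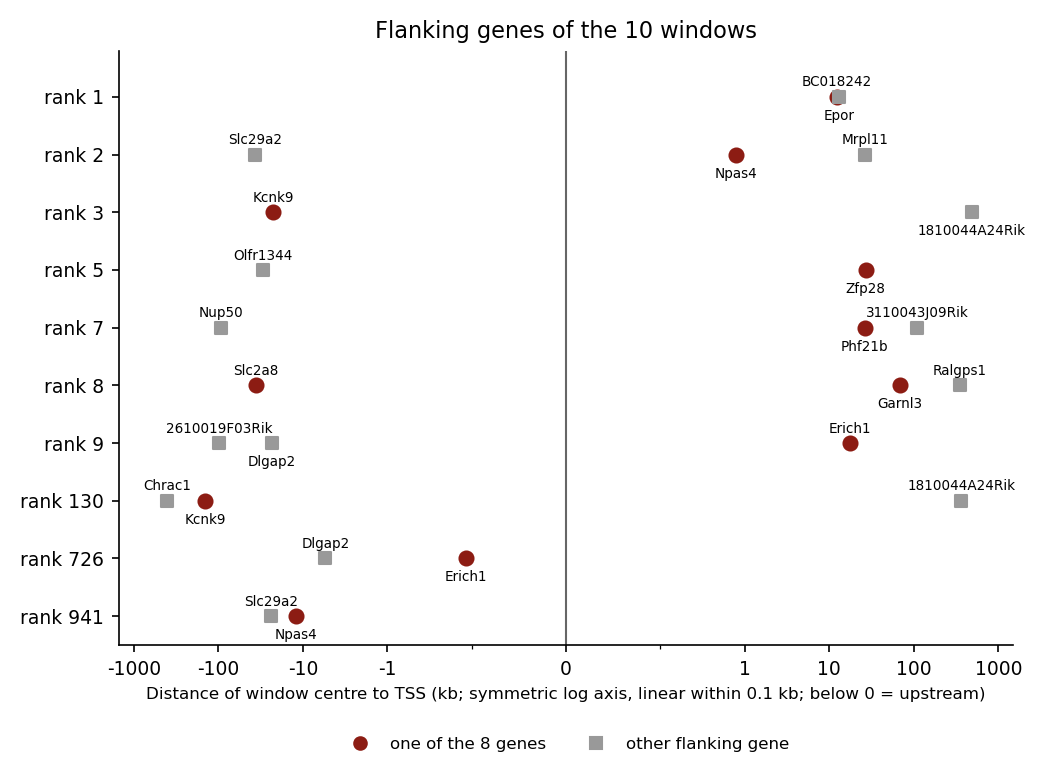
Distance in kb from the centre of each of the 10 windows to the TSS of each flanking gene, on a symmetric log axis that is linear within 0.1 kb, with values below 0 for windows upstream of the TSS. Red points are the 8 genes and grey squares the other flanking genes. The window of rank 726 is closest to a TSS, at 118 bp from Erich1, and that of rank 2 follows at 793 bp from Npas4.

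By the deposited genes, the windows were mostly away from promoters. Of the 10 windows, 5 were inside an annotated gene, against 37.5% of all 1000 windows, and all 5 of these were in introns. Within 500 bp of a TSS there was 1 window of 10, at Erich1, and 0 of the 7 in the top 10, against 25.4% of all windows. By GENCODE these were 2 of 10 and 1 of 7, through the window at Gm16532, against 31.6% of all windows. Of the 10 windows, 8 lay over 10 kb from a deposited TSS (80.0%), against 57.2% of all windows. The median distance to the nearest deposited TSS was 20010 bp for the 10 windows and 19.0 kb for all 1000. With the GENCODE genes it was 10552 bp for the 10 windows and 5852 bp for all 1000. Promoter sequences from RefSeq (GRCm38.p6, from 250 bases before to 50 after the start) were found for 6 of the 8 genes. None of these 6 held a site of 0 or 1 mismatches, as did 0.0999% of the promoters of 27025 genes. At most 3 mismatches were reached by the Phf21b promoter, against 7.16% of all genes.

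The Runx motif, which was not used in the choice of the genes, was present in 5 of the 10 windows and in 4 of the 7 top windows, against 66.1% of all windows. It was counted as TGTGG or TGCGG followed by C or T, on either strand, and could overlap a REST-like site. The windows with it were those of Zfp28, Phf21b, Garnl3 and Erich1 in the top 10 and the window just upstream of Erich1. At ranks 1, 2 and 3 it was absent. At rank 8 it overlapped a REST-like site by 1 base, and at ranks 5, 7 and 9 it lay apart from them. With T as the last letter only, it was present in 2 of the 10 windows. With windows widened by 50 bp, the full motif was in 7 of the 10. The shares over all windows under these 2 rules are not given here, so these counts have no background to compare with. Among the 47 other windows with a REST-like site, 20 held the motif (42.6%, 29.5 to 56.7), and among the 945 windows without one, 637 did (67.4%, 64.4 to 70.3). In windows of the same width 500 bp to either side of all windows, 321 of 2000 held it (16.1%, 14.5 to 17.7). Intervals here and below are Wilson 95% intervals, which cover counting error only.

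Set against the whole list, 8 of the 10 windows held a REST-like site, which the choice had fixed for 7 of them, against 55 of all 1000 windows (5.50%, 4.25 to 7.09). Pairs of sites were in 7 of the 10, against 26 of all windows (2.60%, 1.78 to 3.78). In windows of the same width 500 bp to either side, a REST-like site was found in 38 of 2000 (1.90%, 1.39 to 2.60), and one with 0 or 1 mismatches in 0 of 2000, which allows a share of up to 0.192%. In the flanks of the 10 windows it was found in 0 of 20. The median GC content was 57.4% in the 10 windows, with a range from 51.5 to 63.4%, and 54.5% in all windows. Of the 31-base stretches of each window, every one occurred once in the genome at 9 of the 10 windows. At rank 9, 4 of 71 occurred 2 times. Both copies lay in the window itself, where the printed sequence repeats around its 2 sites.

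At the edge of the choice, the windows of ranks 4, 6 and 10, whose nearest TSS belonged to Ccdc77, Pcyt1a and Sf3a3, had 6, 5 and 4 mismatches at best and were not included. The next windows with a REST-like site were at ranks 14 and 16. That of rank 14 lay between 2610528K11Rik, 203 kb away, and Pbx3, which was deposited as nearest, and held 2 sites of 2 mismatches each. That of rank 16 lay in an intron of Camta1, 257 kb from its TSS, and its sites had 3 and 1 mismatches. Both had a pair of sites, like the 7 above them, but neither had an exact one.

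Over the whole list, with the 7 windows chosen by rank and site included, windows with exact sites and with pairs ranked higher. Windows with an exact site had a median rank of 31.5 (n = 12), and for these no median without the chosen windows was taken. Of the 12 windows with an exact site, 6 were those of Npas4, Kcnk9, Zfp28, Phf21b, Garnl3 and Erich1. The other 6 were at Lhx2 (rank 54), a developmental transcription factor, Rtbdn (71), Xkr7 (77), Xkr6 (124), C1qa (248) and Snap25 (713), which encodes a protein of synaptic vesicle fusion. These genes had the nearest TSS, at 66.8 kb for Lhx2, 113 kb for Xkr6 and 25.9 kb for C1qa. For the C1qa window another gene was deposited as nearest. At Rtbdn, Xkr7 and Snap25 the TSS was 351, 565 and 909 bp away. Windows with 2 sites had a median rank of 74.0 (n = 26), those with 1 site 377.0 (n = 29) and those with none 513.0 (n = 945). The 7 top windows are part of the first group, and without all windows of the 8 genes its median rank was 242.0 (n = 19), against 431.0 (n = 28) with 1 site. Other windows with a pair were at Scrt1 (rank 28), a neuronal zinc finger repressor, 156 bp upstream of the TSS, and at Glra1 (rank 154), a glycine receptor subunit, 155 bp upstream.

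The other windows named by rank were those of Hdx (33), Gprin1 (51), Brunol4 (53) and Trap1 (56). Hdx had 1 site of 3 mismatches, 56 bp upstream of the TSS. The window at Gprin1, 1.23 kb upstream of its TSS, was deposited with Sncb, which encodes beta-synuclein, and held 1 site of 1 mismatch. Brunol4, an RNA-binding protein gene of the CELF family, had a pair of sites in an intron. At Trap1, 70 bp upstream of the TSS, 1 site had 2 mismatches.

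**Figure D3:**
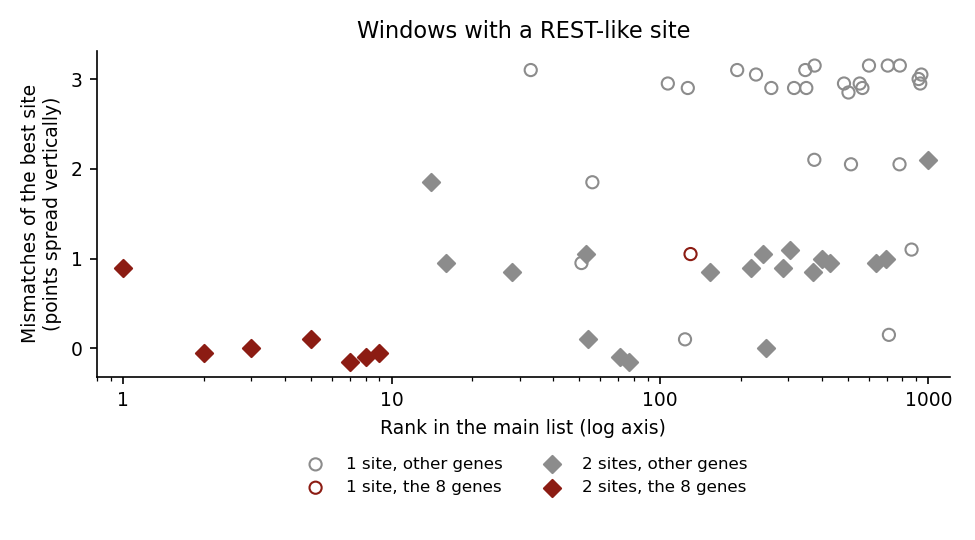
The 55 windows of the main list with a REST-like site, by rank on a log x axis and by the mismatches of their best site on the y axis, with points spread vertically to separate them. Filled diamonds are windows with 2 sites and open circles those with 1, in red for the 8 genes. The red diamonds are the 7 windows in the top 10, and the red circle is the second Kcnk9 window, at rank 130.

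The genome was then searched the other way round, from sites to windows. It held 290 exact sites, of which 13 lay in a window of the main list (4.48%, 2.64 to 7.52), 7 of them in windows of the 8 genes. Of 2141 sites with 1 mismatch, 30 lay in a window (1.40%, 0.983 to 1.99). Together these were 43 of 2431 (1.77%, 1.32 to 2.37), and 14 of the 43 were in windows of the 8 genes. Of 25030 sites with 2 mismatches, 15 lay in a window (0.0599%, 0.0363 to 0.0989), and of 248075 with 3 mismatches, 33 did (0.0133%, 0.00947 to 0.0187). These counts include the windows that were chosen for their sites. Without the windows of the 8 genes, the shares were 6 of 283 exact sites (2.12%, 0.975 to 4.55), 23 of 2134 with 1 mismatch (1.08%, 0.719 to 1.61), 12 of 25027 with 2 (0.0479%, 0.0274 to 0.0838) and 33 of 248075 with 3. The intervals for 0 and 1 mismatches then overlapped, and both lay above those for 2 and 3 mismatches.

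Groups of sites differed more. Sites of 0 or 1 mismatches that fitted together into 101 bp were counted as 1 group, an added comparison chosen after the pairs had been seen. Of 35 groups of 2 or more sites, 18 had a window (51.4%, 35.6 to 67.0), and 6 of these 18 were at the 8 genes. With exactly 2 sites it was 17 of 31 groups (54.8%, 37.8 to 70.8). With 3 or more it was 1 of 4 (25.0%, 4.56 to 69.9), at the 8 genes, so no rise beyond 2 sites was seen. Of 2345 sites left single by this rule, 12 had a window (0.512%, 0.293 to 0.892), and 3 of these 12 were at the 8 genes. The 3 were the exact site of rank 5, the right-hand site of rank 9 and the site of rank 130. The right-hand site of rank 9 lay 42 bp from the left-hand one, but together with the first site of that locus takes up more than 101 bp. Without the windows of the 8 genes, 12 of 29 groups of 2 or more sites had a window (41.4%, 25.5 to 59.3), against 9 of 2342 single sites (0.384%, 0.202 to 0.729). The difference in share between groups and single sites was thus also present away from these genes. With up to 2 mismatches, 27 of 331 groups of 2 or more had a window (8.16%, 5.67 to 11.6). No test was made, since the same windows had drawn attention to the pairs.

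**Figure D4:**
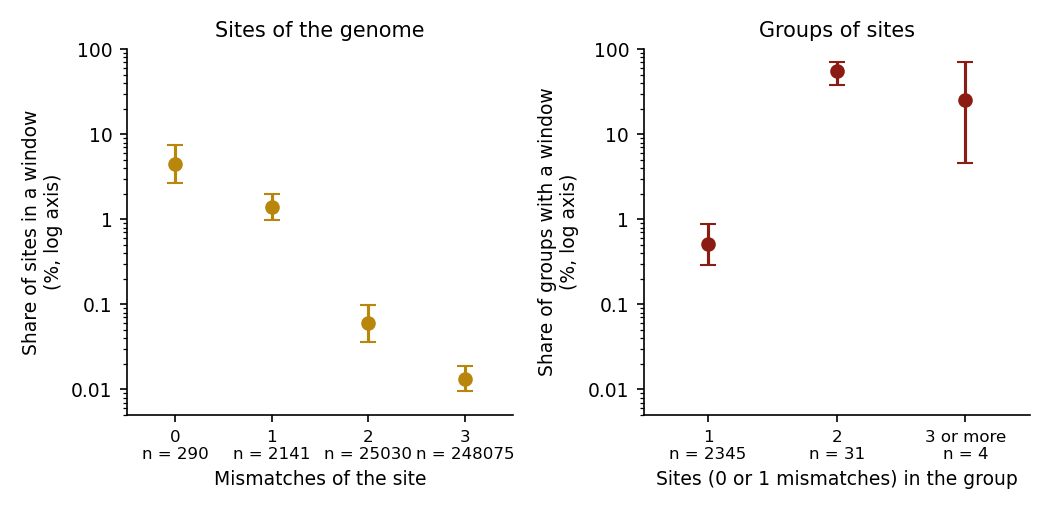
Share in percent, on log axes, of REST-like sites in the mouse genome that lie in a window of the main list, by mismatches on the left, and of groups of sites with 0 or 1 mismatches that have a window, by number of sites on the right. Points are shares, bars are Wilson 95% intervals and n is the number of sites or groups, with those at the 8 genes included. A window is present at 54.8% of groups of exactly 2 sites, at 25.0% of the 4 groups of 3 or more and at 0.512% of single sites.

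Sites without a window in the list were also present near the 8 genes. The list holds the 1000 highest windows and is a small part of the peaks the study called, so such a site may still lie in a weaker peak. Within the genes and 50 kb to each side, 4 sites of 0 or 1 mismatches were found for Npas4, of which 2 were in a window. An exact site of Npas4 without a window lay 2.59 kb from the TSS and 3.38 kb from the centre of the rank 2 window. Erich1 had 5 sites, of which 2 were in a window, and of its 3 exact sites the one without a window lay 12.4 kb from the TSS. Zfp28 had 3 sites with 1 in a window, and one of the others lay 1.05 kb from its TSS. Phf21b had 3 with 1 in a window, and Garnl3 had 3 with 2 in a window. BC018242, Kcnk9 and Slc2a8 had 2, 3 and 2 sites, all in windows. The sites without a window at Npas4 and near the TSS of Zfp28 stood alone, and so did the exact one at Erich1. At Zfp28, Phf21b and Erich1, 1 further site each lay within 100 bp of a window centre.

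Known REST target genes and the REST complex itself were looked up for comparison. Of 53 neuronal and neuroendocrine genes known for RE1 elements, 11 were nearest or neighbouring genes of a window (20.8%), against 7.98% of 22225 protein-coding genes. Npas4, chosen by its window, is among them, and without it there were 10 of 52 (19.2%). The 53 genes included microRNA genes, and 50 of the 53 were found in GENCODE, whereas the background held protein-coding genes only. As the list of windows holds the highest ones only, these counts do not cover the weaker peaks of the study. Both this gene list and that of REST and its partners below were drawn up with earlier results of these data known. Their shares are therefore given as a description, with no test. Only 4 of the 11, namely Npas4, Lhx2, Glra1 and Snap25, had a REST-like site in the window. That window was 66.8 kb from the TSS at Lhx2, and 793, 155 and 909 bp from it at Npas4, Glra1 and Snap25. The windows of Scn8a (rank 263), a sodium channel gene, and Celsr3 (120), an adhesion receptor gene, each had 4 mismatches at best. Those of Chgb (261) and Scg2 (788), both genes of secretory granule proteins, had 6 and 5. The window was 217 kb from the TSS at Scn8a, 94.3 kb at Chgb and 576 kb at Scg2. At Scn8a and Scg2 another gene had the nearest TSS. Counted by the nearest TSS, 6 of the 53 genes had a window (11.3%), or 5 of 52 without Npas4 (9.62%), against 3.65% of protein-coding genes.

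Of 20 genes for REST and its partners, 6 were nearest or neighbouring genes of a window (30.0%), against the 7.98% above. Phf21b, chosen by its window, was the one with a REST-like site, and without it there were 5 of 19 (26.3%). Counted by the nearest TSS there were 3 of 20, or 2 of 19 without Phf21b (10.5%), against 3.65%. Rest itself was a neighbouring gene of windows of ranks 60 and 740, 33.7 kb and 50.1 kb from its TSS. For both, another gene had the nearest TSS, and both had 5 mismatches at best and the Runx motif. Rcor1, which encodes the co-repressor CoREST, had a window 821 bp upstream of its TSS (rank 370). Rcor3 was a neighbouring gene of one 67.4 kb away (rank 699), which lay nearer to another TSS. Smarca4, a chromatin remodelling ATPase, and Cbx5, the heterochromatin protein HP1 alpha, had windows of ranks 57 and 778. The Smarca4 window was 23.3 kb from its TSS and nearer to that of another gene. The best matches at Rcor1, Rcor3, Smarca4 and Cbx5 had 5 or 6 mismatches.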

How the data were processed

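ChIP-seq was measured in 3 libraries of SFZ chondrocytes, 1 each of RUNX3-FLAG, IgG and input, so there were no replicates and no tests. Per the study's methods, bowtie mapped the reads to mm9 without masking, and CisGenome called the peaks against input, keeping those past limits on false discovery rate and P value. The authors deposited ranks, positions and distances to RefSeq genes in bp for 1000 windows in each of 2 lists, without read counts, peak heights or P values, so the depth is unknown here.

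Deposited positions were taken to start at 0, the end included, and are printed starting at 1, which gives windows of 101 bp. Sequences were read from the mm9 (NCBIM37) genome, and its GENCODE vM1 annotation was the alternative to the deposited genes. REST-like sites and Runx motifs were sought in each window and its flanks, and REST-like sites on 21 chromosomes. Distances were taken from the window centre. Later gene symbols came from RefSeq (GRCm38.p6) by gene ID.

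The genes, the gene lists and the motif rules were chosen with earlier results of these data known. Named besides the 8 genes and their flanking genes were the list genes with a window, some of which are not reported here, and the genes nearest to the 10 next windows with a REST-like site. C1qa, Xkr6 and the genes at ranks 4, 6 and 10 were named after their values were seen, as were Pbx3 and Sncb, the deposited nearest genes. The motif search was tested on simulated sequences, and 8 of 8 steps passed. The work used Python 3.11.15 with matplotlib 3.10.9, pysam 0.24.0, pandas 2.3.3, scipy 1.17.1 and numpy 2.4.6, and samtools 1.23.1.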

Additional observations from a re-analysis of the deposited data

How the results depend on the processing

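Of 82 alternative values over 30 results, 58 stayed within 101 bp, within the interval or within 1.5 times the main value, and 24 moved. All 30 values from the IgG-named list were among the 58, but that list comes from the same RUNX3-FLAG library. No paired analysis was possible because there was 1 library per group, and there were no replicates to leave out.

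The number of all windows with a REST-like site was 55, and it became 35 with at most 2 mismatches, 160 with at most 4, 148 with wider gaps of 7 to 12 bases allowed, 88 with windows widened by 50 bp, 31 in the top 333 windows and 26 with 2 or more sites asked for. The number of windows of the 8 genes with a site remained 8 under the first 4 of these. The main Runx motif was in 5 of the 10 windows of the 8 genes, the narrower one in 2, and the main one in 7 with windows widened by 50 bp. The median distance to a TSS with GENCODE genes was 10552 bp. The share of genome sites with a window was 4.48% without mismatches, 0.211% with at most 2 and 0.0330% with at most 3, 1.20% without the windows of the 8 genes and 51.4% for groups of 2 or more sites. The median offset became 19.0 bp with the farther of tied sites. The last 3 values and the count with 2 or more sites were added after seeing the data. Counting only the nearest gene left 5 REST targets and 2 genes of the complex, the nearest TSS left 6 and 3, and a limit of 50 kb left 6 targets. These counts follow from the stricter rules themselves.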
